A study of Homo sapiens with 4 samples.

Results

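The ATF4 and CHOP stress response was followed through 10 genes, ATF3, ATF4, DDIT3 (the gene of CHOP), TRIB3, ASNS, CHAC1, SESN2, PPP1R15A, DDIT4 and CEBPB. They were taken by symbol from the 33538 genes listed, and all 10 were found. The genes were chosen by their levels in these libraries, shAPC day 3 above all, so their levels, ratios and joint detection are given as a description, with no test. When eIF2 is phosphorylated by one of its kinases, most translation slows while the ATF4 mRNA is translated more. ATF4, a bZIP transcription factor, then raises genes of amino acid supply and of redox balance together with DDIT3, and prolonged CHOP activity is tied to cell death. PPP1R15A closes the loop, since its protein guides a phosphatase to eIF2.

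The cells were HCEC 1CT, made immortal with TERT and CDK4 and derived from epithelium of the human colon. They carried a hairpin that lowers APC (shAPC, 1 hairpin sequence) or the scrambled control hairpin (shScr). All of them were transduced, selected with puromycin, grown with EGF, hydrocortisone, insulin, transferrin, selenite and low serum, and harvested at day 3 or day 7 after transduction. Each shRNA at each day is 1 group with 1 single-cell library, 4 libraries in all, so no difference has a replicate check. Values in a row without names follow the order shScr then shAPC, day 3 before day 7. The values are UMI counts, that is distinct RNA molecules per gene and cell, and all intervals below are 95% intervals for counting error only.

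The kept cells numbered 1116, 788, 2600 and 1478, with 28451455 to 39797418 UMIs per library. Their median depth was 35109, 49685.5, 1330 and 21029.5 UMIs, so shScr day 7 was far shallower per cell. Between 2 and 25 barcodes were shared by any 2 libraries, 1 to 19 of them among kept cells. APC was 16.1 CPM (UMIs per 1000000 kept UMIs of the library) in shScr day 3, 5.52 in shAPC day 3, 19.1 in shScr day 7 and 6.61 in shAPC day 7. The epithelial name of the line was not borne out by its markers. Of 14 epithelial markers, 7 to 9 had a UMI per library, KRT20, CDX2, MUC2 and KRT5 were at 0 in all 4 libraries, CDH1 was at 0 in 3, and the list summed to 25.1 to 49.5 CPM. All 10 mesenchymal markers were present, at a sum of 9119.6 to 11679 CPM, and at day 7 COL1A2 and COL3A1 were at least 2-fold higher in shAPC. Immune markers summed to 17.9 to 30.4 CPM with PTPRC, CD3E and MS4A1 at 0 in both shScr libraries and in shAPC day 3, and endothelial markers summed to 0.0961 to 0.276 CPM. How far such cells had a part in the results below was not tested.

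The starts of these genes were searched for 3 motifs to which bZIP factors of this response bind, on both strands. These were TGATGNAA, the composite C/EBP-ATF element, TGACGTCA, the cyclic AMP response element, and TGANTCA, the AP-1 element. RefSeq (GRCh38.p14) gave 17 windows of 300 bases, from 250 before to 50 after a start, for the 10 genes. A match was held by 6 of these windows, from 5 genes, since the windows of DDIT3 overlap and share 1 match. Of all 35116 such windows, 3.62% held the first motif, 1.85% the second, 7.71% the third and 12.7% at least 1 of them. The windows with a match are shown, 1 for each gene, 5′ to 3′ on the gene's strand, to give the motif in its context. No link to the levels below was tested. The capitals mark the match, and no window held more than 1.
ATF3 (chr1:212565157-212565456, plus strand): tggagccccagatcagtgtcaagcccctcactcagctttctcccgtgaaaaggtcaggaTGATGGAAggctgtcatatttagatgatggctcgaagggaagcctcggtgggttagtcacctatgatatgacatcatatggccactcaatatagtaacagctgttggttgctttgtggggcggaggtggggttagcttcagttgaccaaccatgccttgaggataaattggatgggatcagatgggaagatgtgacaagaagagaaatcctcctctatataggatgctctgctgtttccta
ASNS (chr7:97872359-97872658, minus strand): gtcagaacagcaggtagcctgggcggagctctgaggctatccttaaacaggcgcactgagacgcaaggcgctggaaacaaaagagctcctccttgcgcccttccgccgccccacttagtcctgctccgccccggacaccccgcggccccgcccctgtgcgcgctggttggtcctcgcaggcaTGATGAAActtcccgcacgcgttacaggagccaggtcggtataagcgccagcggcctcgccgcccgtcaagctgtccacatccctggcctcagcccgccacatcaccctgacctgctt
CHAC1 (chr15:40953221-40953520, plus strand): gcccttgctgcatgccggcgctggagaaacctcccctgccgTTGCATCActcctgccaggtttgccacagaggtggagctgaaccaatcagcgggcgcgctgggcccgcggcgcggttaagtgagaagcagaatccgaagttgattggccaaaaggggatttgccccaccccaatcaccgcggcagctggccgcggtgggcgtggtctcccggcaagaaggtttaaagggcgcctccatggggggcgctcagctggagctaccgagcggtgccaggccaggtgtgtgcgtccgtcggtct
PPP1R15A (chr19:48872171-48872470, plus strand): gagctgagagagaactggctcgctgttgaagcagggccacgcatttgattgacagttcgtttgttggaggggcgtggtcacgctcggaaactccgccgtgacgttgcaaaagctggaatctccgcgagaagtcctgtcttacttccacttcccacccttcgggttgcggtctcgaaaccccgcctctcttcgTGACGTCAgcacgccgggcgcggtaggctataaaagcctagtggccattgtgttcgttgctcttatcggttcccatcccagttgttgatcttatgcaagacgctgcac
DDIT3 (chr12:57520465-57520764, minus strand): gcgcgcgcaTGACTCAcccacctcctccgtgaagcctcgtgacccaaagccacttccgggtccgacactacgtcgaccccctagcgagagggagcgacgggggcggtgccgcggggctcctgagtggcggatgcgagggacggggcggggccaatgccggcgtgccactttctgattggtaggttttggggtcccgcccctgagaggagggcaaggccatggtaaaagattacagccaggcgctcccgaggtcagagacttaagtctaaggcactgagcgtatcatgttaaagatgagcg
The ATF3, ASNS and CHAC1 windows held the C/EBP-ATF element, in CHAC1 on the opposite strand. The PPP1R15A window held the cyclic AMP response element 58 bases before the start, and the DDIT3 window held an AP-1 element, also present in a second DDIT3 window shifted by 3 bases. The other 5 genes had no match in these windows. A match is a run of letters only, and binding was not measured.

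At day 3, 7 of the 10 genes were at least 2-fold higher in shAPC than in shScr (ATF3, DDIT3, SESN2, TRIB3, CHAC1, PPP1R15A and ASNS), and none was 2-fold lower. Among all 5175 genes that reached 20 CPM in either library, 3.86% were 2-fold higher and 0.425% lower, on log2 of CPM with 1 CPM added. At day 7 none of the 6 genes that reached 20 CPM passed 2-fold in either direction, against 0.787% higher and 1.77% lower of 4573 genes. ATF3, TRIB3, ASNS and CHAC1 did not reach it, and of these ATF3 was past 2-fold, lower in shAPC (-1.91 on the same scale). The day 3 count was fixed by how the genes were chosen, and nothing is read from it. The median of all genes lay at a log2 ratio of 0.28 at day 3 and -0.10 at day 7, and ratios relative to it are given where they matter. With TMM scaling the day 3 median of all genes was -0.13, with 83 higher and 67 lower of 4842 genes in place of 200 and 22 of 5175. At day 7 totals without mitochondrial and ribosomal protein genes gave 75 higher and 83 lower of 6446 genes, in place of 36 and 81 of 4573. More genes reached 20 CPM with those totals, so the counts are not on the same number of genes.

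**Figure D1:**
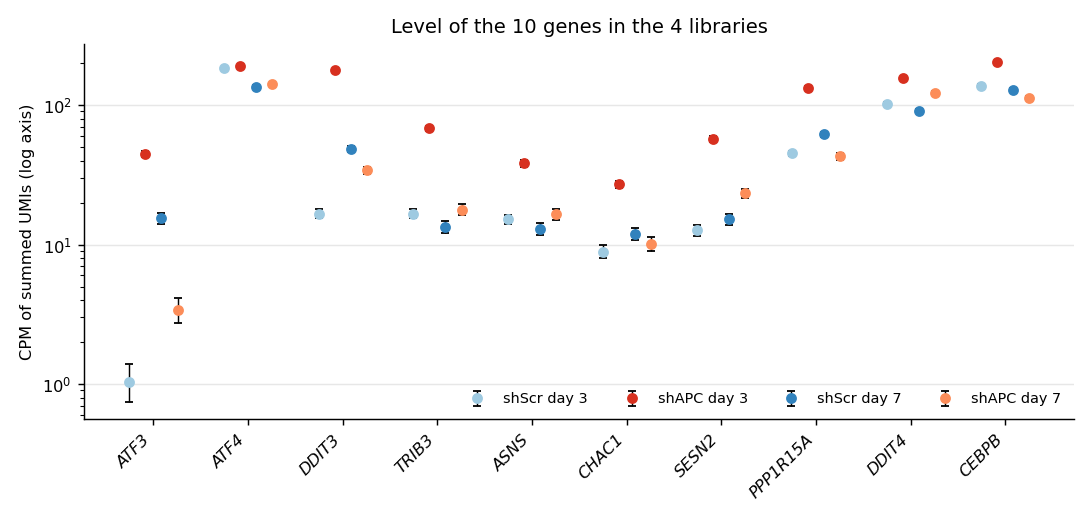
CPM of summed UMIs (log axis) of the 10 genes in the 4 libraries, with exact Poisson 95% intervals. ATF3 runs from 1.03 in shScr day 3 to 44.7 in shAPC day 3, while ATF4 stays between 135 and 189 in all 4 libraries.

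ATF3 encodes a bZIP factor that is induced by many stresses and can repress as well as activate. The gene (ENSG00000162772) spans 212565334 to 212620777 of chromosome 1 on its plus strand (GENCODE 44 on hg38). It had 41 UMIs in shScr day 3, 1562 in shAPC day 3, 481 in shScr day 7 and 96 in shAPC day 7, or 1.03, 44.7, 15.4 and 3.37 CPM. The shAPC library was thus the highest at day 3 and the lower one at day 7, and no 2 neighbours in this order had overlapping counting error. The shAPC over shScr log2 ratio was 5.44 (4.99 to 5.92) at day 3, a 43.4-fold difference, and -2.19 (-2.52 to -1.87) at day 7. Relative to all genes these were 5.16 and -2.10. Without the 5% of cells with the most UMIs in each library they were 4.36 and -1.58. Within shScr the later library exceeded the earlier by 3.90 (3.44 to 4.40) on the log2 scale, and within shAPC it was lower by a log2 ratio of -3.73 (-4.04 to -3.43).

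In every library few cells carried these counts, and the counts of single cells were largest in shAPC day 3 and shScr day 7. ATF3 had a UMI in 35 of 1116 cells of shScr day 3 (3.14%, 2.19 to 4.33), 130 of 788 of shAPC day 3 (16.5%, 14.0 to 19.3), 72 of 2600 of shScr day 7 (2.77%, 2.17 to 3.47) and 44 of 1478 of shAPC day 7 (2.98%, 2.17 to 3.98). In shAPC day 3, 7 cells held 50% of the ATF3 UMIs, and 1 cell held 288 of the 1562. In shScr day 7, 3 cells held 50%, and 1 cell held 153 of the 481. The most ATF3 UMIs in any cell were 3 in shScr day 3, where 15 cells held 50%, and 11 in shAPC day 7, where 7 cells did.

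DDIT3 encodes CHOP, a C/EBP family factor that pairs with other bZIP proteins. The gene (ENSG00000175197) spans 57516588 to 57521737 of chromosome 12 on the minus strand. It shares this strand with a longer listed transcript, so some reads may have been dropped or split and its counts are uncertain to that degree. DDIT3 was at 16.6 CPM in shScr day 3, 177.6 in shAPC day 3, 48.3 in shScr day 7 and 34.0 in shAPC day 7. As for ATF3, shAPC was far above shScr at day 3 and below it at day 7. Day 3 gave a log2 ratio of 3.42 (3.30 to 3.54), a 10.7-fold difference, and day 7 one of -0.51 (-0.63 to -0.39). The day 7 direction turned to 0.16 without the 5% of cells with the most UMIs and to 0.29 (0.12 to 0.45) in cells without an ATF3 UMI. DDIT3 rose in shScr from day 3 to day 7 by 1.54 (1.41 to 1.68) and was the only one of the 5 members that reached 20 CPM there to pass 2-fold, a step that 0.329% of 4556 genes took upward and 0.79% downward. In shAPC day 3, 17 cells (2.16%) held 50% of its UMIs, against 68 cells (6.09%) in shScr day 3.

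ATF4 is the factor at the head of the response, and much of its control is at translation, which UMI counts do not record. The gene (ENSG00000128272) spans 39519695 to 39522683 of chromosome 22, plus strand, and GENCODE 44 lists 4 pseudogenes of it, none of them counted in these files, so its counts are uncertain. ATF4 was at 182.9 CPM in shScr day 3, 189.2 in shAPC day 3, 135.0 in shScr day 7 and 140.5 in shAPC day 7. The CPM separated by day and hardly by shRNA. From day 3 to day 7 the log2 ratio was -0.44 in shScr and -0.43 in shAPC. Relative to all genes these were -0.49 and -0.09, so in shAPC the step was mostly that of all genes. The shAPC over shScr log2 ratio was 0.05 (0.000645 to 0.10) at day 3 and turned to -0.33 with TMM, and at day 7 it was 0.06 (-0.00457 to 0.12), an interval that held 0. Relative to all genes the day 3 value was -0.23. In rank order of the day 3 ratios, ATF4 stood at place 3903 of 5175 genes, whereas ATF3 was at place 3 and DDIT3 at place 5.

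CEBPB encodes a C/EBP factor that pairs with ATF4 and CHOP, and it lies on chromosome 20 at 50190830 to 50192668, plus strand, opposite the antisense gene CEBPB-AS1. It was at 137.5 CPM in shScr day 3, 201.9 in shAPC day 3, 129.0 in shScr day 7 and 112.1 in shAPC day 7. The day 3 log2 ratio was 0.55 (0.50 to 0.60), or 0.17 with TMM, and the day 7 ratio was -0.20 (-0.27 to -0.14). Like ATF3 and DDIT3, CEBPB was higher in shAPC at day 3 and lower at day 7, by under 2-fold each time, but its levels in the shScr libraries differed little.

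**Figure D2:**
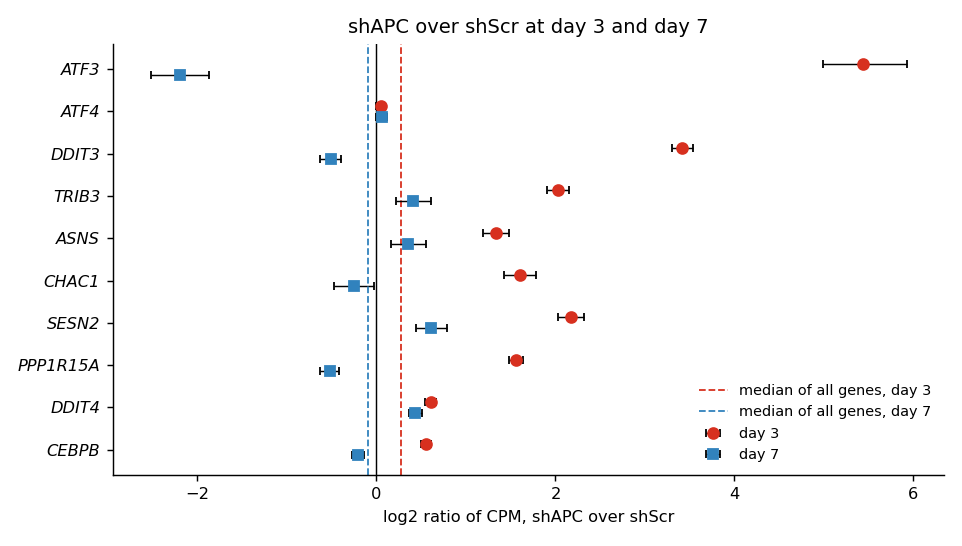
log2 ratio of CPM, shAPC over shScr, of each gene at day 3 (circles) and day 7 (squares) with exact 95% intervals for counting error; dashed lines mark the median of all genes at 0.28 and -0.10. At day 3 all genes but ATF4 lie right of that median, and at day 7 ATF3 lies farthest left at -2.19.

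The targets of ATF4 came next. TRIB3, a pseudokinase that is induced by ATF4 and CHOP and restrains them, lies on chromosome 20 at 362835 to 397559, plus strand. TRIB3 was at 16.6 CPM in shScr day 3, 67.9 in shAPC day 3, 13.4 in shScr day 7 and 17.8 in shAPC day 7. The ratio of shAPC to shScr on the log2 scale was 2.03 (1.90 to 2.16) on day 3 and 0.41 (0.22 to 0.60) at day 7, so shAPC was the higher library at both days. The day 7 level of shAPC and the day 3 level of shScr had a ratio whose interval held 0 (0.10, -0.07 to 0.27).

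ASNS makes asparagine and is a classic target of the amino acid response. It spans 97851677 to 97872542 of chromosome 7, minus strand. As for DDIT3, another listed gene overlaps it on this strand, so some reads may have been dropped or split. GENCODE 44 also lists 4 pseudogenes of it that these files do not count, so reads could be shared. The 4 levels were 15.2 CPM in shScr day 3, 38.2 in shAPC day 3, 12.9 in shScr day 7 and 16.6 in shAPC day 7. Its log2 ratio at day 3 was 1.34 (1.20 to 1.48), or 0.96 with TMM, and that of day 7 was 0.36 (0.16 to 0.55), which was -0.34 instead when CPM were averaged over cells.

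CHAC1, an enzyme that degrades glutathione, lies on chromosome 15 at 40952962 to 40956512, plus strand. CHAC1 was at 8.90 CPM in shScr day 3, 27.0 in shAPC day 3, 11.9 in shScr day 7 and 10.1 in shAPC day 7. shAPC day 3 stood out, and the ratio of shAPC day 7 to shScr day 3 had an interval that held 0. On the log2 scale shAPC exceeded shScr at day 3 by 1.60 (1.42 to 1.78), while day 7 gave -0.25 (-0.48 to -0.02), the latter turning to 0.08 when CPM were averaged over cells.

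SESN2 and DDIT4 restrain mTORC1, the kinase complex that couples nutrients to growth. SESN2 (chromosome 1 at 28259518 to 28282491, plus strand) was at 12.7 CPM in shScr day 3, 57.1 in shAPC day 3, 15.2 in shScr day 7 and 23.3 in shAPC day 7. It was the member with the highest shAPC over shScr ratio at day 7, at 0.61 (0.44 to 0.79), after 2.17 (2.03 to 2.32) at day 3. DDIT4 (chromosome 10 at 72273919 to 72276036, plus strand) was at 102.5, 155.9, 90.4 and 121.9 CPM in the same order of libraries. For DDIT4 the log2 values were 0.61 (0.55 to 0.66) on day 3 and 0.43 (0.36 to 0.50) on day 7. Both genes were higher in shAPC at both days and in all alternatives run, and for DDIT4 the smallest value was 0.23, with TMM at day 3.

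PPP1R15A encodes GADD34, which helps to end the response by bringing a phosphatase to eIF2. The gene lies on chromosome 19 at 48872212 to 48876059, plus strand. PPP1R15A was at 44.9 CPM in shScr day 3, 132.7 in shAPC day 3, 61.6 in shScr day 7 and 42.9 in shAPC day 7. Its shAPC to shScr ratio was 1.56 (1.48 to 1.64) on the log2 scale at day 3, and -0.52 (-0.63 to -0.42) by day 7. As for DDIT3, shAPC day 3 was highest and shScr day 7 next, while shScr day 3 and shAPC day 7 were not separated (log2 ratio 0.07, -0.04 to 0.17).

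From day 3 to day 7 within shAPC, the same 7 genes fell at least 2-fold and none rose. Among all 5176 genes 5.78% fell and 0.058% rose by as much, and the median of all genes was -0.34. The falls ran from a log2 ratio of -3.73 for ATF3 and -2.39 (-2.49 to -2.29) for DDIT3 to -1.21 (-1.36 to -1.05) for ASNS. This comparison shares the shAPC day 3 library with that of shAPC and shScr at day 3, so the counts are not independent of each other.

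Detection within single cells was compared after each cell was thinned at random to 2000 UMIs, which left 899, 673, 1198 and 1087 cells and left out 217, 115, 1402 and 391. At this depth at least 5 of the 10 genes were seen together in 0 of 899 cells of shScr day 3, which allows up to 0.334%. The same held for 34 of 673 cells of shAPC day 3 (5.05%, 3.52 to 6.99), 10 of 1198 of shScr day 7 (0.835%, 0.401 to 1.53) and 5 of 1087 of shAPC day 7 (0.460%, 0.150 to 1.07). The other extreme differed less, with at least 1 of the genes in 63.5%, 66.6%, 54.8% and 57.0% of cells. Cells with at least 5 of these genes were few in shAPC day 3 and not detected in shScr day 3, where 4 was the most seen in a cell. With another random seed shScr day 3 had 2 such cells. Up to 8 of the genes were seen in 1 cell, in 6 cells of shAPC day 3 and 2 cells of shScr day 7.

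Without thinning, at least 5 genes were seen in 47.4%, 66.4%, 15.3% and 31.3% of cells, the order of the median depths within each day. Thinned ATF3 detection was 4 of 899 cells (0.445%, 0.121 to 1.14) in shScr day 3, 23 of 673 (3.42%, 2.18 to 5.08) in shAPC day 3, 14 of 1198 (1.17%, 0.640 to 1.95) in shScr day 7 and 3 of 1087 (0.276%, 0.0570 to 0.804) in shAPC day 7. The line has no cell type known to lack these genes, so the part of free RNA in these shares was not measured.

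**Figure D3:**
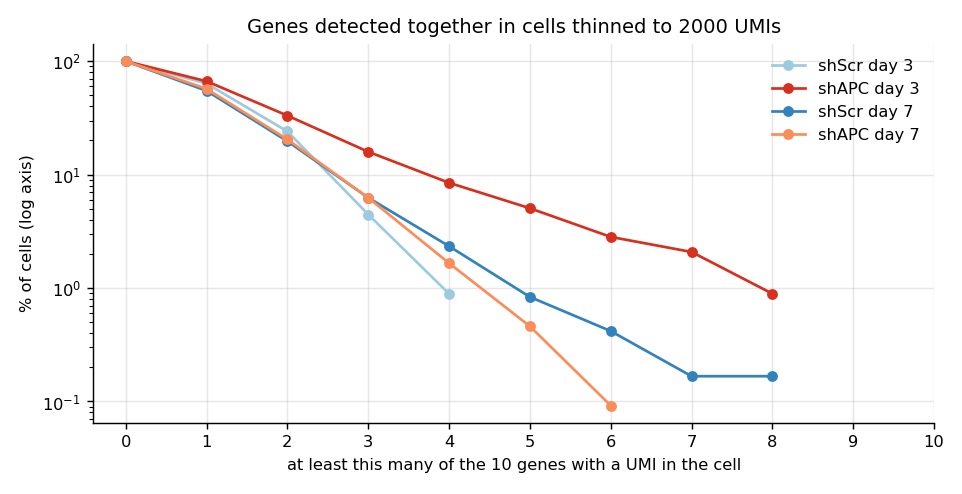
Share of cells (log axis) with at least the given number of the 10 genes, in cells thinned to 2000 UMIs, by library. The libraries run close together for 1 gene, at 54.8% to 66.6% of cells, and spread at 5 genes, where shAPC day 3 holds 5.05% and shScr day 3 has no cell.

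Pairs of genes met in the same cell more often than the product of their shares in 45 of 45 pairs in shAPC day 3, 43 in shScr day 7, 35 in shAPC day 7 and 25 in shScr day 3. The median ratio of observed to product was 1.91, 1.79, 1.41 and 1.09 in that order. Only 3 thinned cells of shAPC day 7 and 4 of shScr day 3 had an ATF3 UMI. Pairs with ATF3 had a product of at most 0.698 and 1.06 cells there, and most were not seen at all. The counts of pairs depend on such detection and are not read as a difference between libraries. In shAPC day 3, ATF3 and DDIT3 were both seen in 15 cells, where the product gives 2.97. CHAC1 and SESN2 were both seen in 13 cells, against 2.30. In shScr day 7, ATF3 and DDIT3 met in 12 cells, against 0.748. ATF4 and DDIT4 met in 48 cells of shAPC day 3 against 38.8, and in 40 of shScr day 3 against 43.9, so that this pair stayed closer to the product. Pairs share cells and genes, and these counts are not independent.

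At full depth, the cells of shAPC day 3 were set in order of their ATF3 UMIs. The 658 cells without one had DDIT3 at 38.7 CPM, the 69 cells with 1 UMI at 121.0, the 29 cells with 2 to 9 at 468.5, the 22 cells with 10 to 49 at 1315, and the 10 cells with 50 or more at 1317. DDIT3 thus went up with ATF3 and levelled off between the last 2 steps. TRIB3 went from 25.2 CPM in cells without ATF3 to 483.4 in those with 50 or more, SESN2 from 26.1 to 332.7, ASNS from 21.4 to 180.0 and CEBPB from 153.4 to 499.1. The other 4 genes were lower in the last bin than in the one before. PPP1R15A was at 61.6 CPM at 0 UMIs, 718.8 at 10 to 49 and 678.0 at 50 or more, and CHAC1 at 12.1, 139.6 and 120.3. ATF4 was at 163.0, 344.3 and 337.9 CPM, and DDIT4 at 134.4, 289.3 and 211.3.

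The few shScr day 7 cells with ATF3 were also high in DDIT3, TRIB3, PPP1R15A and most other members. Its 2528 cells without ATF3 had DDIT3 at 20.1 CPM, its 16 cells with 2 to 9 UMIs at 580.6, its 6 cells with 10 to 49 at 1094, and its 2 cells with 50 or more at 1290. In these 2 cells together TRIB3 stood at 391.7 CPM and PPP1R15A at 1083. CHAC1 was at 391.7 CPM and DDIT4 at 99.8 there, against 120.3 and 211.3 in the same bin of shAPC day 3. In the shScr day 7 cells without ATF3, CHAC1 was at 7.49 CPM and DDIT4 at 87.0. From those cells to the 2 cells, SESN2 went from 10.1 to 222.7 CPM and ASNS from 10.3 to 261.1. CEBPB went from 116.7 to 384.0 CPM and ATF4 from 128.1 to 299.5. The DDIT3 level of the control cells with 10 or more ATF3 UMIs lay near that of the same bins of shAPC day 3. The 11 cells of shAPC day 7 with 2 to 9 ATF3 UMIs had DDIT3 at 495.1 CPM, TRIB3 at 247.5 and PPP1R15A at 414.7, where the same bin of shScr day 7 had TRIB3 at 87.9 and PPP1R15A at 341.1. In shAPC day 7, 2 cells reached 10 ATF3 UMIs, with DDIT3 at 473.3 CPM, and TRIB3 had no UMI there. In shScr day 3 no cell reached 10, and its 5 cells with 2 to 9 had DDIT3 at 106.6 CPM, against 15.6 in cells without ATF3. Of these 5 cells, the one with 3 ATF3 UMIs held 16 of DDIT3, 8 of TRIB3, 12 of CHAC1 and 17 of PPP1R15A. The cells with most ATF3 were not alike either. The shAPC day 3 cell with 288 ATF3 UMIs had 171 of DDIT3, whereas the cell with 105 had 10 of DDIT3, 95 of PPP1R15A and none of TRIB3, ASNS or CHAC1.

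**Figure D4:**
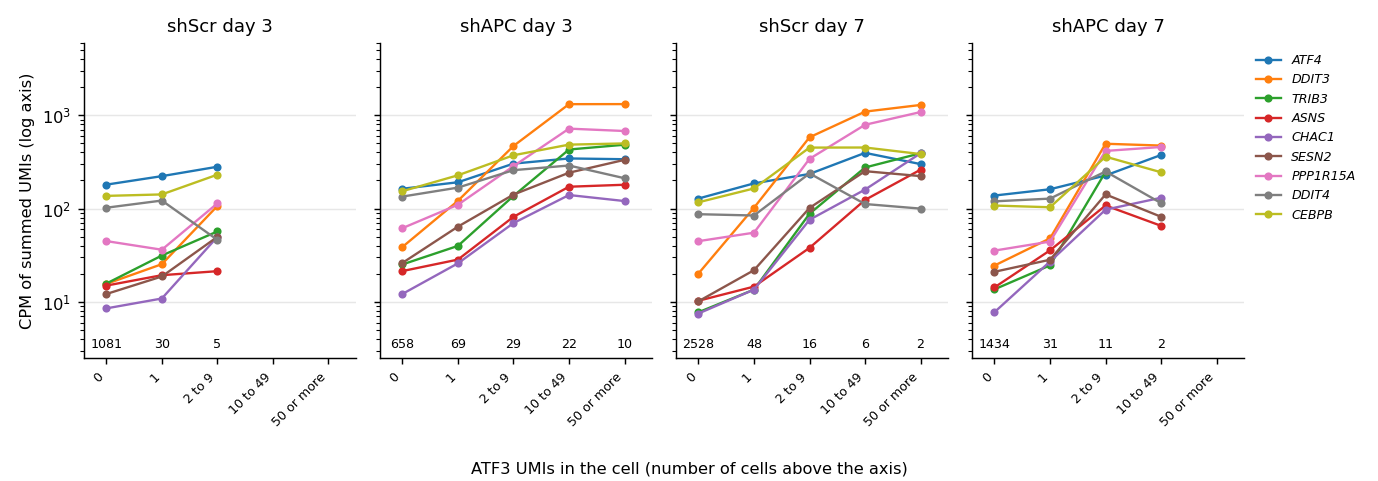
CPM of summed UMIs (log axis) of the other 9 genes in kept cells binned by their ATF3 UMIs, in each library, with the number of cells per bin above the axis and points at 0 left out. In shAPC day 3 DDIT3 goes from 38.7 CPM at 0 ATF3 UMIs to 1317 at 50 or more, and in shScr day 7 from 20.1 to 1290.

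Depth and mitochondrial share moved with these bins. In shAPC day 3 the median depth was 47221.5 UMIs in cells without ATF3 and 91167.5 in cells with 50 or more, and the median mitochondrial share was 3.58% and 1.27%. In shScr day 7 the median depth was 1245 and 65107 UMIs and the mitochondrial share 2.75% and 1.28%. A deeper cell is also more likely to show an ATF3 UMI. After thinning, DDIT3 in shAPC day 3 was at 1304 CPM (995 to 1679) in the 23 cells with an ATF3 UMI and 101.5 (85.0 to 120.4) in the 650 without, a ratio of 12.8 (9.30 to 17.6). In the same cells PPP1R15A had a ratio of 7.54 (4.94 to 11.2), SESN2 of 7.50 (3.73 to 14.0), TRIB3 of 6.94 (3.57 to 12.6), ASNS of 5.35 (2.01 to 12.1) and CEBPB of 2.52 (1.51 to 3.99). Those of CHAC1 (2.92, 0.570 to 9.43), ATF4 (1.58, 0.802 to 2.81) and DDIT4 (1.49, 0.669 to 2.89) had intervals that held 1. The part of depth and of the mitochondrial share in these differences was not tested further.

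Of all DDIT3 UMIs of shAPC day 3, 83.6% lay in the 130 cells with an ATF3 UMI, which held 24.6% of the library's UMIs. TRIB3 had 72.1% of its UMIs there, CHAC1 66.0%, SESN2 65.5%, PPP1R15A 65.0%, ASNS 57.9% and CEBPB 42.7%. ATF4 and DDIT4 had 35.0% each. When these cells and their like were left out of both day 3 libraries, an alternative chosen after seeing the data, the log2 ratios of shAPC over shScr were smaller for all 9 other genes, beside a median of all genes of 0.19. DDIT3 was then at 1.31 (1.17 to 1.46), SESN2 at 1.11 (0.93 to 1.28), TRIB3 at 0.68 (0.52 to 0.84), ASNS at 0.52 (0.35 to 0.69), CHAC1 at 0.51 (0.29 to 0.74) and PPP1R15A at 0.46 (0.36 to 0.56). ATF4 turned to -0.15 (-0.20 to -0.09). At day 7 SESN2 was at 1.05 (0.85 to 1.26) and TRIB3 at 0.82 (0.57 to 1.06) by the same step, both higher than in all cells. Leaving out cells by ATF3 takes away the cells in which its partners were highest, so these are values of the remaining cells only.

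The barcodes that the filters removed, 24.13% and 24.74% of the day 3 libraries, were summed the same way. There the 10 genes summed to 523.9 CPM in shScr day 3 and 511.2 in shAPC day 3, a log2 ratio of -0.04 (-0.11 to 0.04), against 1.02 (1.00 to 1.04) in kept cells. ATF3 had 15 and 12 UMIs in them and DDIT3 13.9 and 15.8 CPM. SESN2 was higher in shAPC, at 16.9 and 29.5 CPM, a log2 ratio of 0.80 (0.41 to 1.21). DDIT4 was also higher (0.26, 0.08 to 0.45), while ATF4 (-0.24, -0.40 to -0.09) and CEBPB (-0.22, -0.37 to -0.08) were lower in shAPC, and the intervals of the other 6 genes held 0. At day 7, when 28.81% and 51.3% of barcodes were removed, DDIT3 was higher in shAPC among them (0.43, 0.19 to 0.68), opposite to kept cells, and SESN2 was at 1.09 (0.85 to 1.34).

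Genes most like ATF3 over the 4 libraries were sought among the 5300 genes that reached 20 CPM in some library, by the Euclidean distance between centred log2 levels. DDIT3 was nearest at 1.31, and CCL5 (1.52), GADD45A (1.61) and HIST1H2BJ (1.70) were among the nearest, where HIST1H2BJ is 1 of a family of near-identical genes and uncertain. With 4 values a gene, such a distance is a coarse description. By another measure, genes with at least 20 UMIs in the thinned cells with ATF3 were ordered by their ratio of CPM between cells with and without it. Genes pass this minimum through the cells in which they are high, and IFNB1 (17 UMIs), TRIB3 and SESN2 did not reach it in shAPC day 3, so the order is a description. The 10 highest there were DDIT3, SNHG12 (10.1), GADD45A (8.17), PPP1R15A, SLC3A2 (7.26), MAP1LC3B (6.82), IFIT2 (6.81), TNFAIP3 (6.30), NFKBIA (6.01) and RSRC2 (5.65). In shScr day 7, 4 of these 10, DDIT3, GADD45A, PPP1R15A and SLC3A2, were again among the 10 highest of genes past the same minimum, with DDIT3 at 45.3 (29.6 to 68.6) and GADD45A at 20.2 (15.1 to 26.7).

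A set of genes noted earlier beside ATF3 in these libraries was chosen on them and is no independent evidence. Of its 10 genes 9 reached 20 CPM at day 3 and all of these were at least 2-fold higher in shAPC, 7 with TMM, while at day 7 HMOX1 was higher and ISG15 lower among 7. Among all genes 3.86% were as much higher at day 3, and 0.787% higher and 1.77% lower at day 7. GADD45A, a p53 and stress target that slows the cell cycle, stood at a shAPC over shScr log2 ratio of 2.69 on day 3 and -0.59 on day 7, and GADD45B at 2.08 and -0.71. JUN and EGR1, immediate early factors, were at 1.14 and 1.28 at day 3 and at -0.10 and 0.16 at day 7, while FOS was at 0.33 (-0.02 to 0.68) and 0.08 (-0.51 to 0.67). PMAIP1 was at 1.68 and -0.05, HMOX1 at 1.78 and 1.66, ISG15 at 2.16 and -1.13, and CCL5 at 5.29 and -1.02. CCL5 did not reach 20 CPM at day 7 and is not among the 7. IFNB1, which encodes interferon beta, had 829 UMIs in shAPC day 3, 823 of them in cells with an ATF3 UMI, and 585 in 1 cell. GADD45A had 82.2% of its UMIs in those cells, and the others of the set between 40.4% (HMOX1) and 61.7% (GADD45B).

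Other genes of the pathway were taken by function into lists, with earlier results of these data known. Each is given as the count past 2-fold among its genes that reached 20 CPM, and the median log2 ratio with 1 CPM added, beside a median of all genes of 0.28 at day 3 and -0.10 at day 7. The shares of all genes past 2-fold were 3.86% higher and 0.425% lower at day 3, and 0.787% and 1.77% at day 7. None of 13 eIF2 kinases and factors passed 2-fold at day 3 (median 0.44), and at day 7 none of 9 did (-0.08). EIF2AK2, the kinase PKR, was highest at 0.83 and -0.06 at the days in order, with EIF2B5 at 0.74 and -0.06. EIF2B5 did not reach 20 CPM at day 7 and is not among the 9. EIF2AK4, the amino acid sensor GCN2, was lowest at -0.66 and -0.65, with EIF2AK1 at -0.14 and -0.11. EIF2AK3, the kinase PERK of the endoplasmic reticulum, had 96 to 118 UMIs at day 3 and a log2 ratio of -0.11 (-0.51 to 0.29).

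Of 10 bZIP partners, JUN was 2-fold higher at day 3 (median 0.64), followed by CEBPG at 0.89, while JUND and ATF6 were lowest at 0.24 and 0.07, and none of 8 passed at day 7 (-0.02). Of 12 other ATF4 or CHOP targets, GDF15, BBC3 and TXNIP were 2-fold higher at day 3 (median 0.66) and none of 11 at day 7 (-0.12). BBC3, a pro-apoptotic BH3 protein gene, was at 1.82 and 0.85 but did not reach 20 CPM at day 7, so it is not among the 11. TXNIP was at 1.54 and -0.24, and at the low end STC2 was at 0.36 and EIF4EBP1 at 0.09.

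Among 7 amino acid transporters the median was 0.10 at day 3 and -0.10 at day 7. SLC3A2, the heavy chain shared by several of these carriers, was at 2.24 at day 3, from 51.4 CPM in shScr and 246.9 in shAPC, and at -0.32 at day 7, while its partner SLC7A5 was at 0.48 and 0.46, and SLC38A2 and SLC7A1 were lowest at -0.04 and -0.17. Of 9 genes of amino acid synthesis GOT1 alone passed (1.04), with PSPH at 0.66 and PSAT1 and ALDH18A1 at 0.02 each, for a median of 0.35, and at day 7 the median of 7 was 0.28 with none past 2-fold. The list of 13 aminoacyl-tRNA synthetases, which also holds the tRNA exporter XPOT, had a median of 0.37 and none past 2-fold. CARS (0.99) and YARS (0.92) were highest, XPOT (0.10) and NARS (-0.12) lowest, and at day 7 11 genes had a median of 0.05.

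Genes of protein folding and quality control in the ER, which answer to the ATF6 and IRE1 arms of the unfolded protein response, were listed with XBP1, the transcription factor of the IRE1 arm. They had a median of 0.11 over 14 genes at day 3, and 2 lay above the median of all genes, XBP1 at 0.94 and PDIA6, a disulfide isomerase, at 0.30. CANX and HSP90B1 were lowest, at -0.47 and -0.34, and at day 7 the median of 12 genes was -0.23, with none past 2-fold at either day. Of 8 other brakes of mTORC1 TSC2 and AKT1S1 reached 20 CPM, at 0.33 and 0.28. Among the paralogs of the 10 genes CEBPG (0.89), CEBPD (0.64) and ATF5 (0.59) did, none of them 2-fold. TMM lowered every day 3 log2 ratio of summed UMIs by 0.38. With it JUN and GOT1 were no longer 2-fold higher, EIF2AK4 was 2-fold lower, and SLC3A2, GDF15, BBC3 and TXNIP still were. Of the genes named here STC2, EIF4EBP1, JUND, ATF6, PDIA6, TSC2, AKT1S1, XPOT, PSAT1 and ALDH18A1 turned negative. The day 3 medians became 0.07 for the eIF2 genes, 0.27 for the bZIP partners, 0.29 for the other targets, -0.014 for amino acid synthesis, -0.0045 for the synthetases, -0.27 for the transporters and -0.26 for the ER folding genes. With this scaling the day 3 median of all genes was -0.13, below all of these but the transporters and the ER folding genes.

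**Figure D5:**
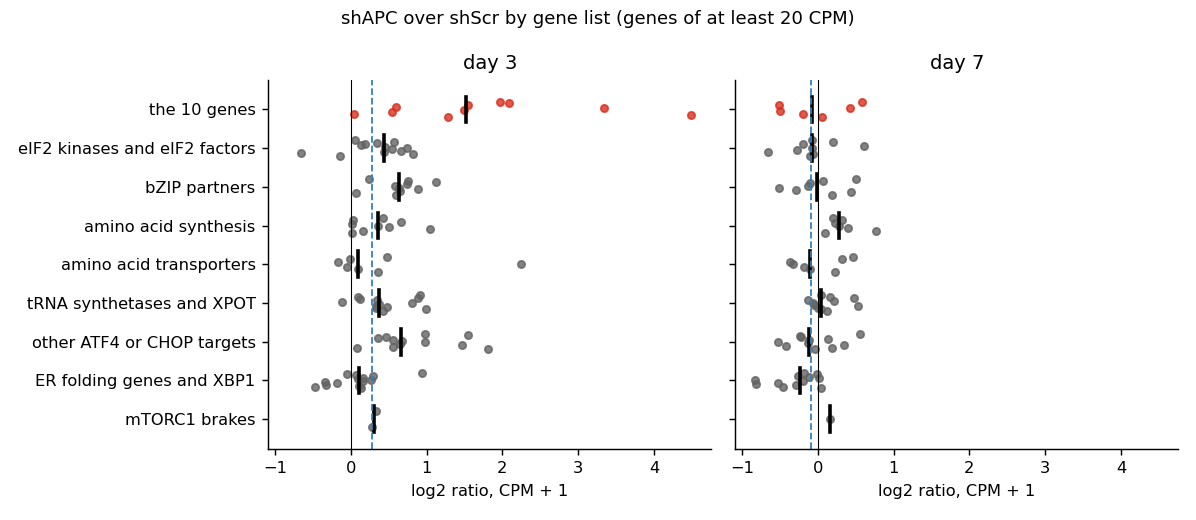
log2 ratio of CPM with 1 CPM added, shAPC over shScr, of each gene that reached 20 CPM, by list, at day 3 and day 7; thick bars are list medians and dashed lines the median of all genes. At day 3 the 10 genes have a median of 1.52 and the other 8 lists drawn have medians between 0.10 and 0.66. With TMM 5 of these turn below 0, beside a median of all genes of -0.13.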

How the data were processed

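Single-cell RNA libraries of HCEC 1CT cells were analysed from the deposited raw UMI count matrices, 1 per library. Per the labels and methods, the authors aligned reads to hg38 and counted UMIs with Cell Ranger. The file headers name version 3.0.2 for both shScr and 3.0.0 for both shAPC libraries, so the version and the shRNA cannot be told apart. The sources differ on the virus (retroviral in the labels, lentiviral in the methods) and on the 10x kit (v2 and V3). The study's cell numbers after filtering differ from those here.

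A barcode was kept if it had at least 200 genes and 500 UMIs, with the 13 mitochondrial genes below 5% of them. This removed 355 (shScr) and 259 (shAPC) barcodes at day 3, and 1052 and 1557 at day 7. Doublets were not called. An alternative left out the 5% deepest cells. UMIs were summed per library and scaled to CPM. CPM have exact Poisson intervals, shares and ratios exact binomial (Clopper-Pearson) intervals, at 95%, for counting error only. With 1 library per group no test was run. A count of 0 was read against a floor of 3 counts. Genome-wide ratios used log2 of CPM plus 1 for genes that reached 20 CPM in either library, and a call was 2-fold. Cells were thinned to 2000 UMIs (random seed 1) for joint detection. edgeR 4.0.16 (TMM) and DESeq2 1.42.0 gave alternative scalings, in R 4.3.3, and other steps used Python 3.11.15. The ratio steps were tested on simulated data.

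Members and lists were chosen with earlier results of these data known. Named genes were the 10 members, from each list the 2 highest and 2 lowest at day 3, the 5 genes nearest to ATF3 (1 of them is not reported here), the 10 highest in cells with ATF3 (of genes with at least 20 UMIs there), the set noted beside ATF3, and APC. GDF15, EIF2AK3, COL1A2 and COL3A1 fell outside this rule and were named after their values were seen.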

Additional observations from a re-analysis of the deposited data

Results flagged for a closer look

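For 5 of the genes the shAPC over shScr log2 ratios of day 3 and day 7 had opposite signs, with both intervals for counting error clear of 0. The day 3 ratio exceeded the day 7 ratio by 7.63 for ATF3, 3.93 for DDIT3, 2.09 for PPP1R15A, 1.85 for CHAC1 and 0.76 for CEBPB. With 1 library per group the difference between the days was not tested, and a change of culture or library between them cannot be told apart from a change with time. For DDIT3 the opposite sign was lost without the 5% of cells with the most UMIs and in cells without an ATF3 UMI, and for CHAC1 with the mean over cells of CPM and in cells without an ATF3 UMI. For ATF3, 3 cells held 50% of the 481 UMIs of shScr day 7, which the intervals do not take into account. The share of day 7 cells with an ATF3 UMI at full depth was 2.77% in shScr and 2.98% in shAPC.

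In barcodes removed by the filters, which entered no comparison of kept cells, the 10 genes summed to 467.5 CPM in shAPC day 7 and 444.2 CPM in shScr day 7, a log2 ratio of 0.0741 (0.03 to 0.12). In kept cells of day 7 the same sum had a log2 ratio of -0.03 (-0.0614 to 0.00257).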

How the results depend on the processing

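No leave-one-out analysis was possible because each group holds 1 library. No paired analysis was possible because the groups compared share fewer than 2 replicate numbers. The alternatives kept the direction of the ATF3 ratios, of 5.44 at day 3 and -2.19 at day 7. Beyond counting error, the day 3 value moved to 4.95 with all deposited barcodes and 4.95 with a mitochondrial limit of 10%, and to 4.36 without the 5% deepest cells, where the day 7 value was -1.58. The median of the members at day 3, 1.52, became 1.15 (TMM), 1.17 (DESeq2 size factors), 1.43 (totals without mitochondrial and ribosomal protein genes), 1.38 (all barcodes), 1.38 (limit of 10%), 1.13 (without the 5% deepest cells), 1.33 (5 CPM added) and 0.60 (at least 100 CPM). The count of members 2-fold higher at day 3, 7, fell to 2 at 100 CPM, since few members reach that level, and was 5 to 7 otherwise. At day 7 the median of -0.07 turned to 0.12 (totals without mitochondrial and ribosomal protein genes), 0.13 (without the 5% deepest cells) and 0.0578 (at least 100 CPM), and the count 2-fold lower went from 0 to 1 with those totals and with no minimum level.

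Among single members, ATF4 at day 3 turned from 0.05 to -0.33 (TMM), -0.31 (DESeq2), -0.0649 (totals without mitochondrial and ribosomal protein genes), -0.0385 (without the 5% deepest cells) and -0.15 (cells without ATF3). At day 7 DDIT3 turned from -0.51 to 0.16 (without the 5% deepest cells) and 0.29 (cells without ATF3), CHAC1 from -0.25 to 0.0804 (mean over cells of CPM) and 0.0484 (cells without ATF3), and ASNS from 0.36 to -0.34 (mean over cells of CPM). The cause was not tested. Of 162 such values of members other than ATF3, 85 stayed within counting error, 67 moved in size and 10 turned.

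Shares of cells followed the depth. The shAPC minus shScr difference in cells with ATF3 at day 3, 2.97 percentage points, was 5.19 at 5000 UMIs, 7.46 at 10000 (added after seeing the data) and 13.4 unthinned, and at day 7, -0.893 (-1.71 to -0.15), it turned to 0.208 unthinned. At day 7 this interval was clear of 0 with both random seeds at 2000 UMIs. It held 0 at 1000, 5000 and 10000 UMIs, unthinned, without the 5% deepest cells and with all deposited barcodes. The difference in cells with at least 5 members at day 3, 5.05, was 1.40 at 1000 UMIs, 11.6 at 5000, 18.9 at 10000, 19.0 unthinned and 3.00 without the 5% deepest cells. At day 7, -0.375, it was 0.915 at 5000, 5.10 at 10000 and 15.9 unthinned. With another random seed 2 cells of shScr day 3 held at least 5 members. At 2000 UMIs 1402 of the 2600 shScr day 7 cells were too shallow to enter.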
